A study of Mus musculus with 7 samples.

Results

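The entries described here are those named as 5.8S rRNA and a set of short RNA entries listed with them in the CIRS-seq counts of mouse embryonic stem cells. They were taken by their symbols, which are n-R5-8s1, 5_8S_rRNA, AC165092.1, AC140318.1 and every symbol that starts with mmu-mir-2134. This gave 8 transcripts of 8 genes among the 26827 transcripts listed, of which the annotation labels 2 as rRNA and 6 as miRNA. The first 5 entries in this order, with mmu-mir-2134-1 as the fifth, were chosen because their counts were high after DMS treatment, so their values in DMS against untreated RNA are described and not tested. The other 3 entries came in by their symbol alone.

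CIRS-seq maps the bases of native, deproteinized RNA that are free to react with a chemical. Dimethyl sulfate (DMS) methylates unpaired A and C, and CMCT, a carbodiimide, attacks unpaired U and, less readily, G. Reverse transcriptase stops 1 base before a modified base, and each such RT stop was counted at the position of the modified base. All libraries came from the E14 line of strain 129/Ola and from RNA depleted of rRNA with a Ribo-Zero Gold kit, and for CIRS-seq the lysates were digested with Proteinase K before probing. The DMS libraries pooled aliquots treated at 50 to 200 mM, the CMCT libraries pooled aliquots treated at 10 to 50 mM, and the NT libraries pooled the aliquots of both chemistries at 0 mM. There were 2 libraries of each treatment, and RNA-seq was made from 1 untreated library of the same line.

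The 5.8S rRNA is the small partner of the 28S rRNA in the large ribosomal subunit, to which it is held by base pairs, and it is cut out of the same precursor as the 18S and 28S rRNAs. That precursor comes from tandem rDNA repeats, which mouse assemblies hold only in part, and single copies of rRNA genes scattered over the other chromosomes are common. The longest entry, n-R5-8s1 (ENSMUSG00000065922), is annotated as an rRNA gene of 148 nucleotides and 1 exon at chr18:73693057-73693204 of mm9, minus strand. An entry annotated as a miRNA is meant as a hairpin precursor from which a short guide of Argonaute proteins would be cut. Whether the entries so annotated here are such precursors was not tested, and the word hairpin below follows the annotation.

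The other entries are, like n-R5-8s1, single exons. 5_8S_rRNA (ENSMUSG00000088595) is 143 nucleotides long at chr6:94776775-94776917, minus strand. AC165092.1 lies at chr14:20110895-20110982 on the plus strand and AC140318.1 at chr9:3258609-3258699 on the minus strand. mmu-mir-2134-1 lies at chr1:169270500-169270555, minus strand, and mmu-mir-2134-2 at chr4:138894219-138894275, plus strand. The symbol mmu-mir-2134-4 belongs to 2 genes, at chr9:56071522-56071578 and at chr13:9833715-9833771, both on the minus strand. No stop can be listed in the last 25 bases of a transcript, which left 123 positions of n-R5-8s1, 63 and 66 of the AC165092.1 and AC140318.1 pair and 31 or 32 of the mmu-mir-2134 entries.

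The sequence of n-R5-8s1 is not shown. The other sequences are shown because the positions of the stops and the words that the entries share are read from them. They were read from the mm9 genome, 5′ to 3′ on the strand of the gene, with T for U, and capitals mark the positions that held at least 1 DMS stop in either replicate.
5_8S_rRNA: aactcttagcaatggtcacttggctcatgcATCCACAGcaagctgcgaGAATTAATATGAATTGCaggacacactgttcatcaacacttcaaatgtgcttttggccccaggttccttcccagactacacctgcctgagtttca
AC165092.1: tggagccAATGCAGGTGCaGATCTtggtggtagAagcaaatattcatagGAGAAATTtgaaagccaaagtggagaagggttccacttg
AC140318.1: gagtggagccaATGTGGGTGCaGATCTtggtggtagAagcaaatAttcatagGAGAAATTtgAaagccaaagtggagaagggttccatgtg
mmu-mir-2134-1: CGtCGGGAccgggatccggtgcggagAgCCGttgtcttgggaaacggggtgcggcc
mmu-mir-2134-2: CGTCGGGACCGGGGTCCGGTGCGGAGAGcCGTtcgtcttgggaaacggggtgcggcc
mmu-mir-2134-4 (chromosome 13): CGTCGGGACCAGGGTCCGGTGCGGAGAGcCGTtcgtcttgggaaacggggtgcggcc
The entry mmu-mir-2134-4 on chromosome 9 has the same 57 bases as mmu-mir-2134-2. Aligned over 149 columns, n-R5-8s1 and 5_8S_rRNA were 73.2% identical. AC165092.1 and AC140318.1 were 95.5% identical over 88 columns, with the substitutions C12T, A13G, C85T and T86G, counted from 1 at the 5′ end of AC165092.1. mmu-mir-2134-1 differed from mmu-mir-2134-2 by G14A and by 1 missing base, and the copy on chromosome 13 differed by G11A, counted from the 5′ end of mmu-mir-2134-2.

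The CIRS-seq libraries held between 181944556 and 338201940 RT stops in all, and at most 0.185% of a library lay on transcripts that were not found in the annotation. The quasi-likelihood test of edgeR covered 13216 genes. Its adjusted p lay under 0.05 for 3485 (26.4%) in DMS against NT and for 3827 (29.0%) in CMCT against NT. The tested genes include some with near-equal replicates, described below, whose calls do not rest on a spread between separate samples. The shares over all genes carry this limit throughout. In the RNA-seq library, all 10 markers of pluripotent cells were present, at 6.48 to 221 RPKM (alignments scaled to the length of the exons and the size of the library), with Dppa5a highest. The fibroblast markers lay between 0.00775 and 0.235 RPKM and Afp at 0, while Gata6, an endoderm gene, stood at 3.05 RPKM.

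The 5 entries chosen for their DMS counts carried 50.5 to 112 times as many RT stops in DMS as in NT, relative to library size scaled by TMM. In CPM, the counts scaled to a common library size, n-R5-8s1 held 0.726 and 0.974 CPM in the NT libraries, 91.8 and 95.3 CPM in the DMS libraries and 1.13 and 1.87 CPM in the CMCT libraries. Both DMS values lay far above the other 4, and the CMCT values just above the NT values. Within a treatment these values differ mostly through library size. The raw counts behind these levels were 116 and 117 stops in NT, 17856 in each DMS library, and 285 and 284 in CMCT. The ratio of DMS to NT was 112 (95% exact interval 98.8 to 128), and the ratio of DMS to CMCT was 66.6 (61.3 to 72.5). Intervals cover counting error only, since PCR copies were not told apart. In bulk libraries a count of stops depends on how much of an RNA there is and on how often it was modified. For an rRNA it also depends on how much the rRNA depletion left in each library. These cannot be told apart here.

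5_8S_rRNA held 36 stops in each NT library, 2478 in each DMS library and 129 in each CMCT library. In CPM this was 0.225 and 0.300 in NT, 12.7 and 13.2 in DMS, and 0.510 and 0.848 in CMCT. Within a treatment the raw counts were equal, so these values differ only through library size. The ratio of DMS to NT was 50.5 (40.0 to 64.6) and that of DMS to CMCT was 20.4 (18.0 to 23.2).

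The pair of short entries on chromosomes 14 and 9 held the fewest RT stops of the entries in each treatment. AC165092.1 held 2 and 3 stops in NT, 222 in each DMS library and 22 in each CMCT library. AC140318.1 held 2 and 3 stops in NT, 208 and 209 in DMS, and 20 and 21 in CMCT. With so few NT stops, the DMS to NT ratios of 65.1 (27.7 to 202) and 61.2 (26.0 to 189) are known only broadly. The DMS to CMCT ratios were 10.7 (7.84 to 14.9) and 10.8 (7.82 to 15.3), the lowest among the 5 entries.

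mmu-mir-2134-1 held 14 stops in each NT library, 997 and 996 in DMS, and 39 and 38 in CMCT. Its DMS to NT ratio was 52.2 (36.0 to 78.7) and its DMS to CMCT ratio was 27.5 (21.9 to 34.9). In the other 3 copies of this hairpin the totals differed between replicates. In both mmu-mir-2134-2 and mmu-mir-2134-4 on chromosome 9, replicate 2 held most of the stops, with 115 and 16872 stops in NT, 2225 and 9691 in DMS, and 165 and 23173 in CMCT for mmu-mir-2134-2. Its DMS to NT ratio was thus 15.9 in replicate 1 and 0.368 in replicate 2. The copy on chromosome 13 held 92 and 1057 stops in NT, 1817 and 3073 in DMS, and 99 and 189 in CMCT, with DMS to NT ratios of 16.2 and 1.86 in replicates 1 and 2.

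**Figure D1:**
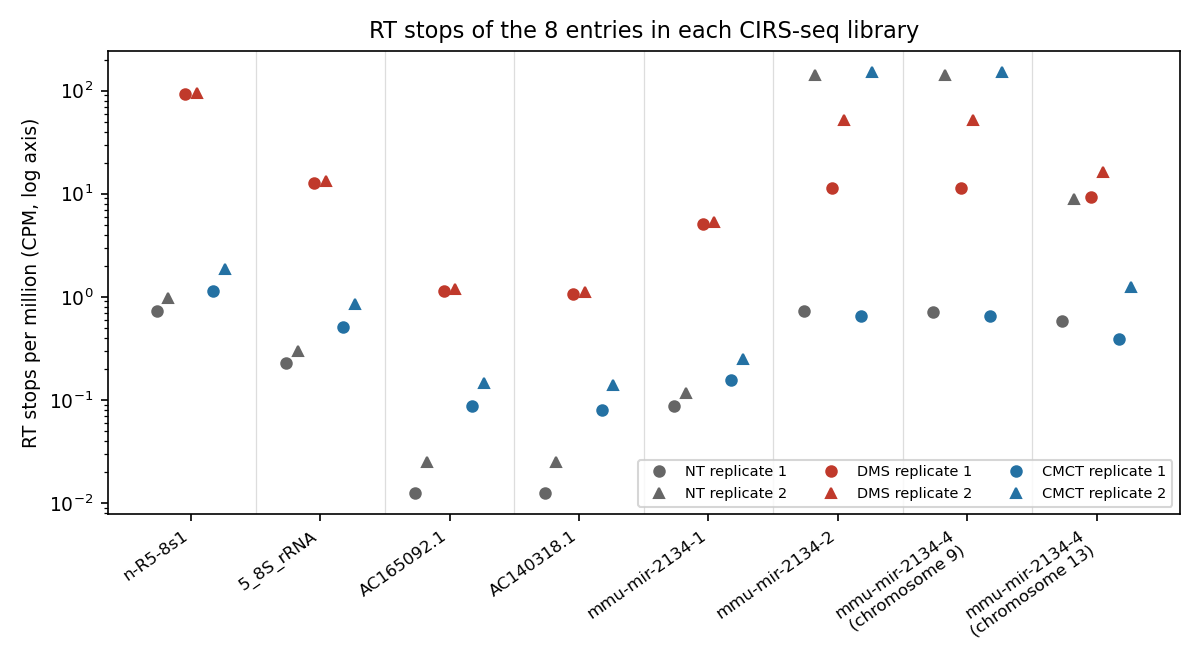
RT stops in CPM (over TMM-scaled library sizes, log axis) of the 8 entries, 1 point per library, with circles for replicate 1 and triangles for replicate 2. Within each of the first 5 entries the DMS points lie above its own NT and CMCT points, at 91.8 and 95.3 CPM for n-R5-8s1, while the last 3 entries are split by replicate, with NT replicate 2 of mmu-mir-2134-2 at 140.4 CPM and NT replicate 1 at 0.720 CPM.

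In the fit over all genes, the log2 fold changes of DMS against NT were 6.78 for n-R5-8s1, 5.64 for 5_8S_rRNA, 5.96 for AC165092.1, 5.87 for AC140318.1 and 5.68 for mmu-mir-2134-1. They were -1.16 for both mmu-mir-2134-2 and mmu-mir-2134-4 on chromosome 9, and 1.46 for the copy on chromosome 13. Without NT replicate 2 these 3 values became 5.45, 5.47 and 4.48. The call of higher in DMS, which 13.8% of all genes met, was met by 5 of the 8 entries, those chosen on this contrast, and nothing is read from that count. The median log2 fold change over all genes was 0.01.

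CMCT against NT is a contrast that the choice of entries did not use, although it shares the NT libraries with the one that was used. The ratio of CMCT to NT stops, scaled by library size, was 6.08 (2.42 to 19.7) in AC165092.1, 5.67 (2.24 to 18.4) in AC140318.1 and 2.48 (1.90 to 3.26) in 5_8S_rRNA. It was 1.90 (1.22 to 3.04) in mmu-mir-2134-1 and 1.69 (1.45 to 1.97) in n-R5-8s1. In these 5 entries the 2 libraries of a treatment held totals within 1 stop of each other, so they amount to 1 sample a treatment and their calls are no test of the treatment.

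The fit over all genes entered both libraries as separate replicates. In it AC165092.1 stood at a log2 fold change of 2.60 ± 0.59 (SE, edgeR adjusted p = 0.00658), AC140318.1 at 2.50 ± 0.61 (edgeR adjusted p = 0.00919) and 5_8S_rRNA at 1.37 ± 0.32 (edgeR adjusted p = 0.00713). n-R5-8s1, at 0.82 ± 0.34 (edgeR adjusted p = 0.0924), and mmu-mir-2134-1, at 0.97 ± 0.38 (edgeR adjusted p = 0.0757), did not pass. The copy on chromosome 13, whose replicates differed, was lower by a log2 fold change of -2.54 ± 0.88 (edgeR adjusted p = 0.0472), a call that was lost under DESeq2 (adjusted p = 0.124). mmu-mir-2134-2 and its identical copy stood at 0.12 (SE 1.72 and 1.73, edgeR adjusted p = 0.968).

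By this fit 3 of 8 entries passed as higher in CMCT, where 15.0% of all genes did, and 1 passed as lower, where 13.9% did. AC165092.1 and AC140318.1 share most of their counts and mmu-mir-2134-2 and its copy share all of them, so the 8 are not separate measurements and nothing is read from these counts. The median log2 fold change was 0.89 over the entries and 0.11 over all genes, and DESeq2 size factors in place of TMM lowered the median over all genes by 0.10. None of the 4 calls held without NT replicate 2, where the adjusted p was 0.0503 for AC165092.1 and 5_8S_rRNA and 0.0608 for AC140318.1 at log2 fold changes of 3.11, 1.58 and 3.01, and where the copy on chromosome 13 turned to a log2 fold change of 0.48. Without NT replicate 1, the adjusted p of the 3 higher entries was 0.0768 to 0.102, and the copy on chromosome 13 was the only one to pass.

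In the first 5 entries the total counts of replicates 1 and 2 lay within 1 stop of each other in each of the 3 treatments. In n-R5-8s1, 5_8S_rRNA and mmu-mir-2134-1, replicates 1 and 2 lay within 1 stop of each other at every position in all 3 treatments. At position 55 of n-R5-8s1, for example, each DMS library held 3176 stops, where counting error alone gives the difference an SD of 79.7. At position 2 of mmu-mir-2134-1 each held 935, against an SD of 43.2. In AC165092.1 and AC140318.1 all DMS and CMCT positions lay within 1 stop, and so did 3 of the 4 NT positions that held a stop, while the other NT position held 0 and 2. For these entries the DMS replicates, at the positions with many stops, differed by less than the sampling noise, and the 2 replicates are described here as 1 sample, although the fit entered both. Their CPM values differ mostly through the library sizes, except in NT for AC165092.1 and AC140318.1, where 2 and 3 stops also differ. The SE and adjusted p above therefore do not measure a spread between separate samples.

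How the 2 files came to hold near-equal counts for such transcripts was not tested, and values per replicate of these entries are not taken as separate measurements. Such equal replicates were found beyond these entries. Of the 15687 listed transcripts with a position of at least 50 DMS stops, 710 (4.53%) lay within 1 stop at every DMS position, and 529 (3.37%) did so in all 3 treatments. Among those of at most 150 nucleotides the count was 376 of 1480 (25.4%), and 330 (22.3%) in all treatments. Over single positions with at least 50 stops in both replicates together, 22.5% lay within 1 stop in DMS, 20.0% in NT and 20.7% in CMCT. Near 50 stops such a gap also arises by counting error alone. The share due to that was not computed, so these 3 values do not show equal replicates. At every position of the 8 entries the deposited table of both replicates together equalled their sum.

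**Figure D2:**
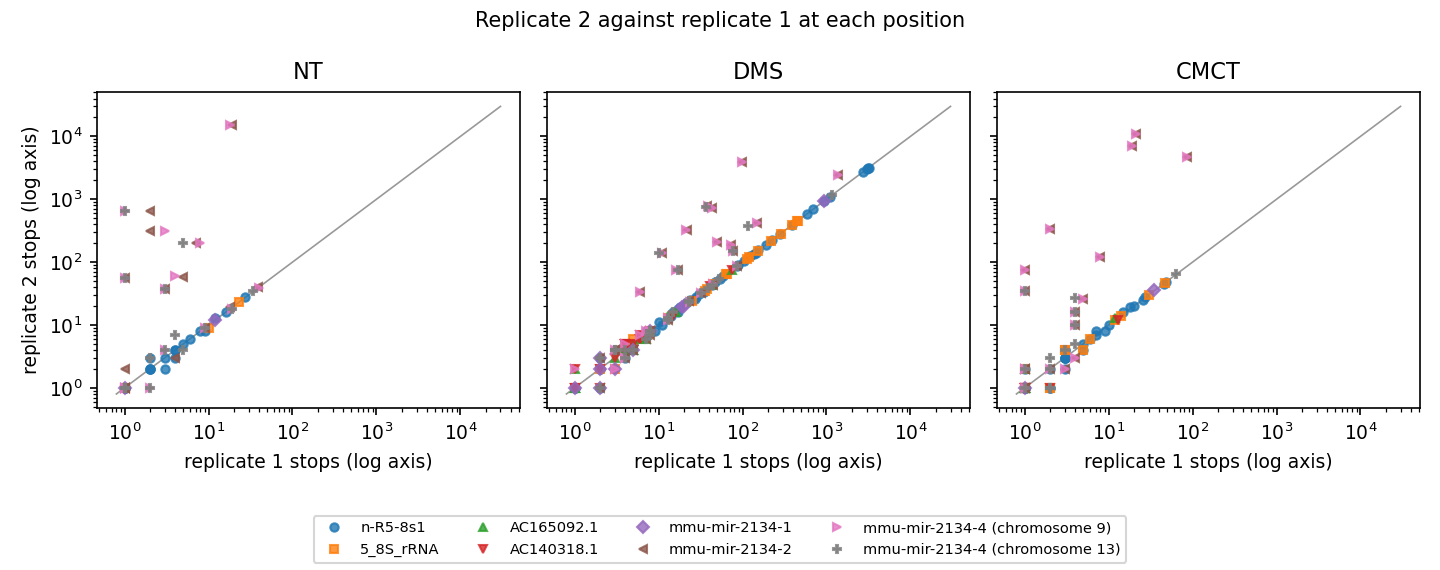
RT stops of replicate 2 against replicate 1 (log axes) at each position of the 8 entries that held a stop in both, for NT, DMS and CMCT, with the grey line marking equal counts. Points of the first 5 entries lie within 1 stop of the line, up to 3176 stops, while points of mmu-mir-2134-2 and both mmu-mir-2134-4 entries lie within 1 stop of it or above it, by up to 15418 stops.

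The stops of n-R5-8s1 lay in a few stretches. Positions 49 to 101 held 98.6% of its DMS stops, 95.7% of its NT stops and 90.5% of its CMCT stops. Positions 12 to 17 held the rest, while positions 1 to 11, 18 to 48 and 102 to 123 held none in any library. A stretch without stops is not read as paired, since whether reads could be placed there was not tested. The leading DMS position was 55 (A), with 6352 stops over both replicates or 17.8% of the total, followed by position 75 (C) with 6271, position 57 (U) with 6133 and position 59 (A) with 5463. These 4 positions held 67.8% of the DMS stops.

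Without treatment the leading position was 57 (U), with 55 of 233 stops, and it also led in CMCT, with 96 of 569. Relative to NT, the gain in DMS was uneven along the RNA. Among the 7 positions with at least 10 NT stops, the DMS to NT ratio of scaled stops was 250 at position 59 (A), 186 at position 55 (A), 144 at position 75 (C), 93.8 at position 56 (A) and 81.8 at position 57 (U). It was 72.4 at position 54 (G) and 15.3 at position 68 (U). The 4 highest of these ratios were on A or C, although every one of the 7 positions was above NT. The ratios rest on 10 to 55 NT stops per position and have no interval, so their order is uncertain. In CMCT the same 7 positions ranged from 0.829 at position 68 (U) to 2.52 at position 55 (A).

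Over all positions, 71.4% (Wilson 95% interval 70.9 to 71.9) of the DMS stops in n-R5-8s1 were on A or C, against 59.2% (52.8 to 65.3) in NT and 66.6% (62.6 to 70.4) in CMCT. A and C make up 49.6% of its measured positions, and the median share was 67.0% over 12579 genes in DMS, 50.3% over 12098 genes in NT and 44.1% over 12665 genes in CMCT. The CMCT stops of this entry were therefore on A or C more often than those of the median gene, and only 23.4% were on U.

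In 5_8S_rRNA the stops fell into 2 blocks, positions 31 to 38 and positions 49 to 65, with none elsewhere in any library. Here too, whether reads could be placed at the empty positions was not tested. The first block held 94.4% of the NT stops and 72.5% of the CMCT stops, but 45.6% of the DMS stops. The second block held 5.56% of the NT stops, which is 4 stops, and 27.5% in CMCT, but 54.4% in DMS. DMS stops were thus spread over both blocks, whereas the stops of untreated RNA sat almost all in the first.

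The leading DMS positions of 5_8S_rRNA were 60 (A) with 904 stops, 36 (C) with 888, 35 (A) with 768 and 50 (A) with 568. Position 60 held no NT stop and 28 CMCT stops. NT stops led at position 36 (C), with 46 of 72, and CMCT stops at position 35 (A), with 93 of 258. On A or C lay 86.5% (85.5 to 87.4) of the DMS stops, 98.6% of the NT stops and 90.3% of the CMCT stops, where A and C make up 53.4% of the measured positions. The share on A or C was thus no higher in DMS than in NT in this entry.

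**Figure D3:**
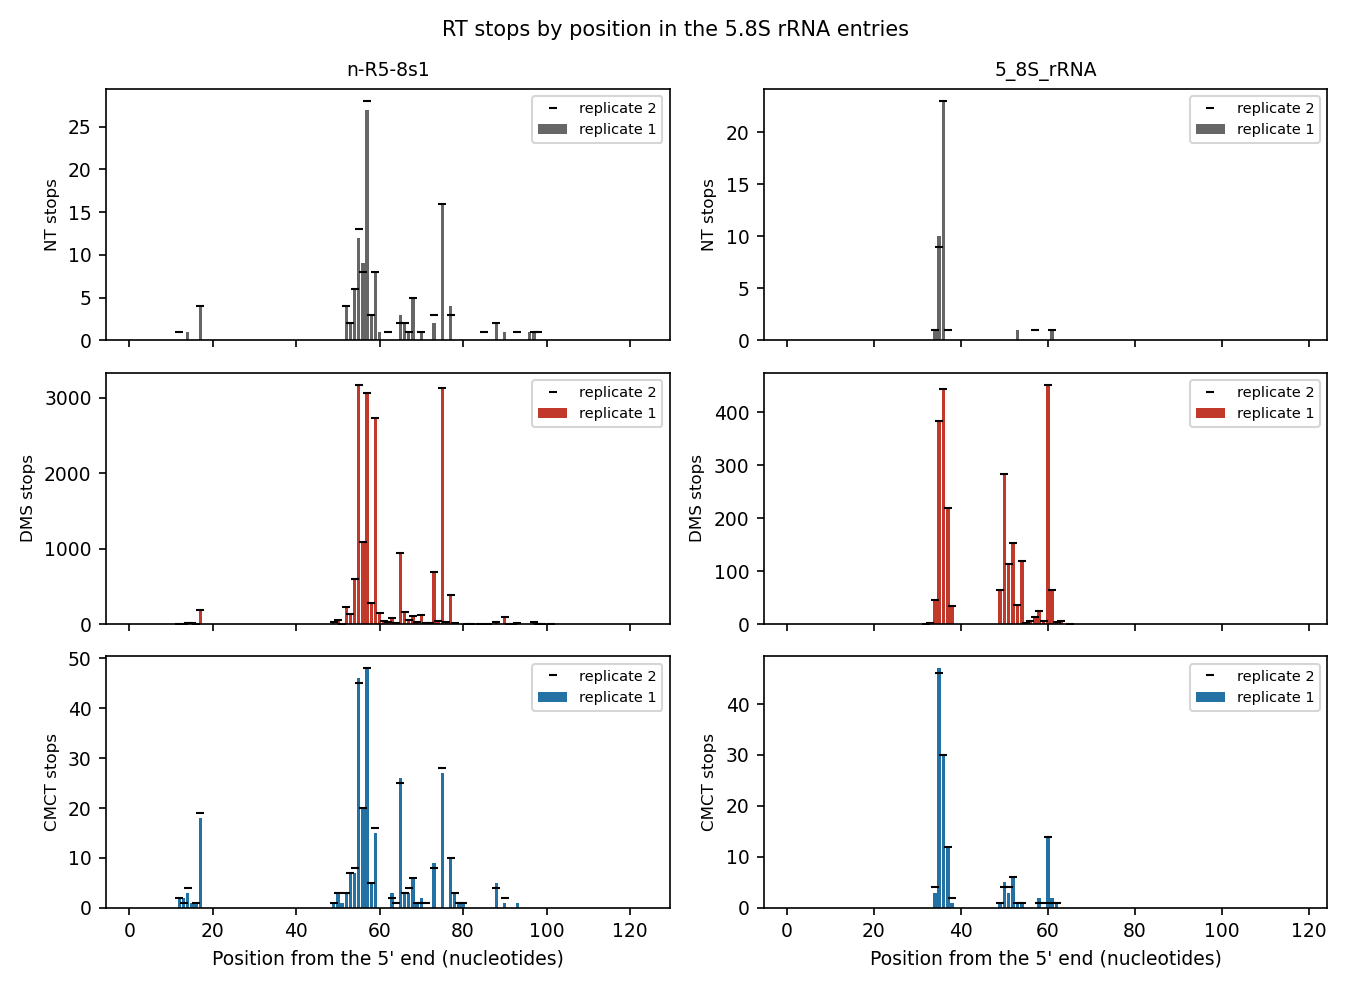
RT stops at each position, counted from the 5′ end, of n-R5-8s1 (left) and 5_8S_rRNA (right) in NT, DMS and CMCT, with bars for replicate 1 and black dashes for replicate 2, each panel on its own linear axis. The dashes sit on the bars within 1 stop, the DMS bars of n-R5-8s1 reach 3176 stops at position 55, and those of 5_8S_rRNA reach 452 stops at position 60.

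The 2 5.8S entries can be compared base by base in their alignment, where position 50 of 5_8S_rRNA faces position 55 of n-R5-8s1. Of 139 aligned positions, 50 held DMS stops in n-R5-8s1 and 25 in 5_8S_rRNA, and 17 held them in both. Spearman's rho was 0.787 across these 17, which leave out the positions with stops in 1 entry alone, given as a description over positions of related RNAs. The facing pairs held 568 and 6352 stops at positions 50 and 55, 305 and 6133 at positions 52 and 57, 239 and 5463 at positions 54 and 59, and 904 and 1875 at positions 60 and 65, the 5_8S_rRNA value first. The order within the stretch differed, since position 60 led in 5_8S_rRNA while its counterpart was the fifth in n-R5-8s1 among these 17. Position 75 (C) of n-R5-8s1, with 6271 stops, faced position 70 (C) of 5_8S_rRNA, with none, and position 35 (A) of 5_8S_rRNA, with 768, faced position 35 (A) of n-R5-8s1, with none.

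The stops of AC165092.1 and AC140318.1 were mostly on G, not on the A and C that DMS is used to probe. AC165092.1 led at position 17 (G) and AC140318.1 at the matching position 20 (G), each with 148 DMS stops and 25 CMCT stops. The second DMS position was 11 (G) with 86 stops in AC165092.1 and 14 (G) with 83 in AC140318.1. On A or C lay 25.0% (21.2 to 29.2) of the DMS stops of the first and 19.4% (15.9 to 23.5) of the second, where A and C make up 46.0% and 42.4% of the positions. These shares depend on where the stop is counted, since reading the base 1 position downstream gave 73.9% and 52.5%, and 1 position upstream 25.9% and 15.3%.

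mmu-mir-2134-1 was close to a single-position signal. Position 2 (G) held 12 stops in each NT library, 935 in each DMS library, and 35 and 36 in CMCT. This was 85.7% of its NT stops, 93.8% of its DMS stops and 92.2% of its CMCT stops. For comparison, the leading position held a median of 22.8% of the DMS stops over 1474 genes of 50 to 150 nucleotides. The scaled DMS to NT ratio at this G was 57.1, and 4.67% (3.82 to 5.68) of the DMS stops were on A or C. Read 1 position upstream, where a C stands, this share was 94.7%, and 1 position downstream it was 1.25%.

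Position 2 (G) was a site of DMS stops in every copy of the hairpin. In replicate 1 it led in mmu-mir-2134-2 with 39 NT, 1379 DMS and 86 CMCT stops, and in the copy on chromosome 13 with 34, 1162 and 63. In replicate 2 the chromosome 13 copy was nearly unchanged there, with 35, 1163 and 64, while mmu-mir-2134-2 held 40, 2452 and 4683. Replicate 2 of mmu-mir-2134-2 led instead at position 4 (C) in NT, with 15435 stops against 19 in replicate 1, and in DMS, with 3943 against 99. In CMCT it led at position 3 (U), with 10879 against 21.

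The split between replicates stopped sharply along the hairpin. At positions 13 to 32, mmu-mir-2134-2 held 36 and 36 stops in NT, 263 and 261 in DMS, and 14 and 14 in CMCT, whereas positions 3 to 12 held 39 and 16796, 534 and 6766, and 65 and 18414. In the copy on chromosome 13, positions 3 to 7 held 11 and 14 stops in NT, 111 and 113 in DMS and 8 and 9 in CMCT, and the excess of replicate 2 was limited to positions 8 to 12, with 10 and 972 in NT, 258 and 1513 in DMS, and 13 and 102 in CMCT. Thus the same hairpin held both stretches where the replicates were equal and stretches where they were not.

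**Figure D4:**
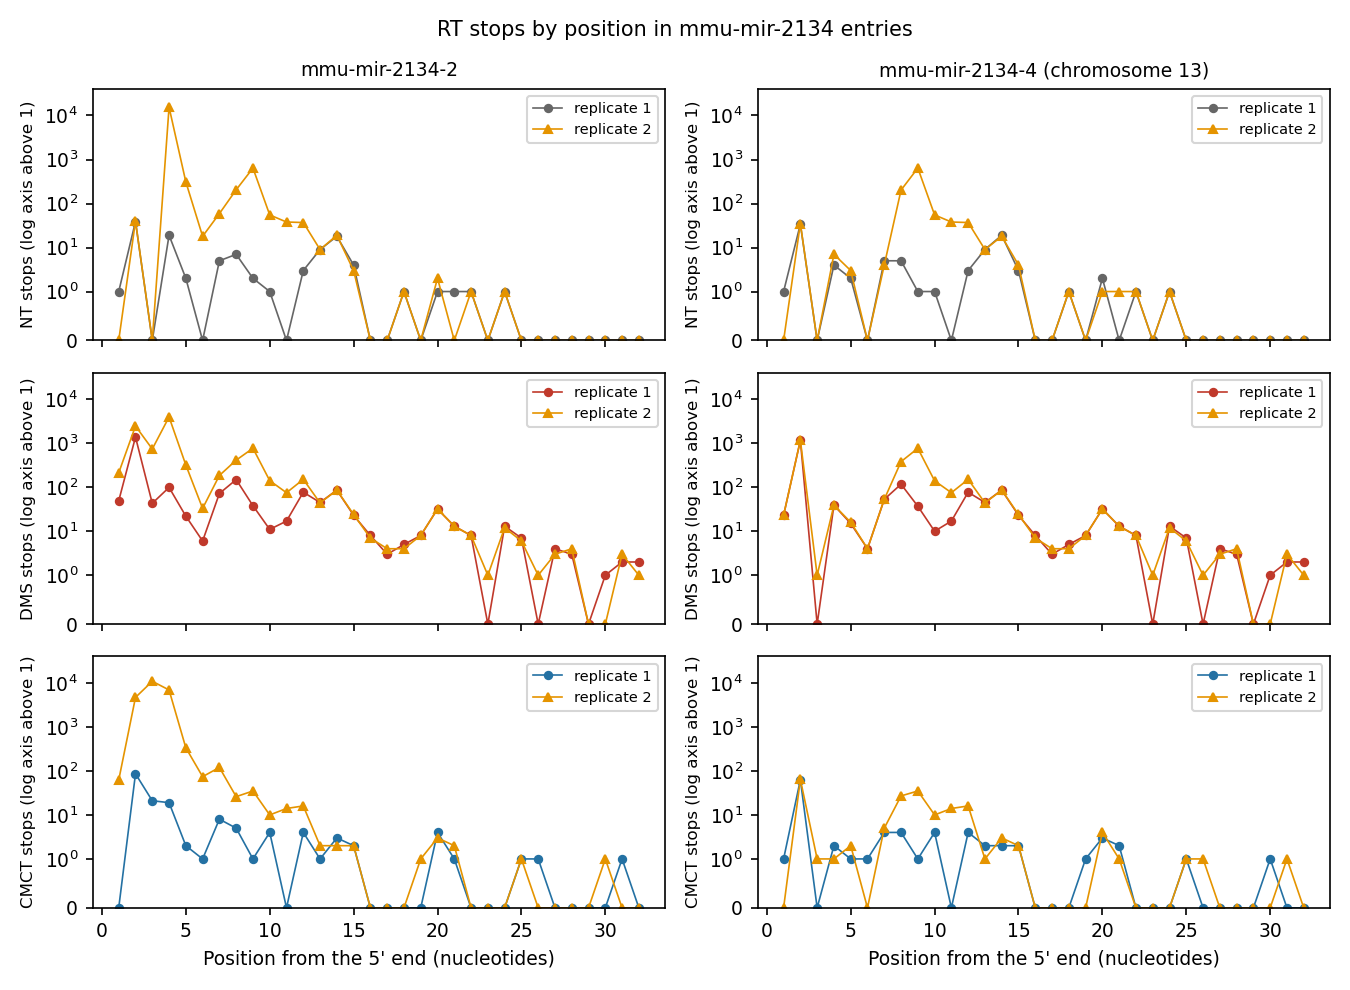
RT stops at each position, counted from the 5′ end, of mmu-mir-2134-2 (left) and of mmu-mir-2134-4 on chromosome 13 (right) in NT, DMS and CMCT, with circles for replicate 1 and triangles for replicate 2, on an axis that is logarithmic above 1. Replicate 2 lies above replicate 1 at positions 4 to 12 of mmu-mir-2134-2 in each treatment, by up to 15416 stops at position 4 in NT, and at positions 8 to 12 of the copy on chromosome 13, and both meet from position 13 on.

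Whether the entries can share reads was examined with exact words of 25 bases, which do not cover reads aligned with mismatches. The read of a stop starts 1 base after the position it is counted at, so 2 positions with the same next 25 bases cannot be told apart by a read of that length. In n-R5-8s1, 5_8S_rRNA and mmu-mir-2134-1 every word was found once in mm9, and none was in another of the 8 entries. With words of 20 bases mmu-mir-2134-1 shared 4 of 36 with another entry, and it had 7 similar places elsewhere in mm9, the closest 96.5% identical. A word found once in mm9 does not show that its reads came from that place. The full rDNA repeat was not used here. All 8 entries, those annotated as miRNA included, were thus compared only with mm9, with the listed transcripts and with each other.

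The other 5 entries shared words. AC165092.1 and AC140318.1 had 47 words in common, 24 of them with stops, and at 22 of these 24 the counts of the 2 entries lay within 1 in all 6 libraries. The largest gap was 2. At the shared words the first held 294 of its 444 DMS stops and the second 302 of its 417, and the words found once in mm9 held 33.8% and 27.6% of the DMS stops.

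mmu-mir-2134-2 and mmu-mir-2134-4 on chromosome 9 shared all 32 words and their counts lay within 1 at all 31 positions with stops. Each shared 22 words with the copy on chromosome 13, where counts lay within 1 at all 21 positions with stops, among them the unequal positions 11 and 12. mmu-mir-689-2, an entry outside the 8, named here after its values were seen, lies at chr16:11144218-11144274 and holds all 32 words of mmu-mir-2134-2. Its counts at them were 114 and 16873 in NT, 2225 and 9691 in DMS, and 165 and 23173 in CMCT, within 1 stop at 31 of 31 positions. These 3 entries thus carry 1 measurement, listed 3 times.

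Words found once in mm9 held 82.7% of the DMS stops in the chromosome 13 copy. At its positions 8, 9 and 10, where the next 25 bases are found once in mm9, it held 202, 640 and 55 NT stops in replicate 2. mmu-mir-2134-2, which differs there by the 1 base G11A, held 205, 639 and 55. These NT counts were thus near-equal at words that the 2 entries do not share. Whether reads were shared there was not tested. At position 4 (C), by contrast, the chromosome 13 copy held 7 NT stops in replicate 2 and mmu-mir-2134-2 held 15435.

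In the RNA-seq library of 31857551 alignments, none had its midpoint in n-R5-8s1, 5_8S_rRNA, AC165092.1, AC140318.1 or mmu-mir-2134-1, where a count of 0 allows up to 3. The hairpins mmu-mir-2134-2, mmu-mir-2134-4 on chromosome 9 and the copy on chromosome 13 had 22, 18 and 9, or 12.1, 9.91 and 4.96 RPKM. Counting any overlap in place of the midpoint gave mmu-mir-2134-1 18 alignments, and left n-R5-8s1, 5_8S_rRNA, AC165092.1 and AC140318.1 at 0. The alignments are 50 nucleotides long, the library kit does not mark strand, and there was no replicate. The RNA was depleted of rRNA, so the 0 at n-R5-8s1 and 5_8S_rRNA does not measure their level before depletion.

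Other ribosomal RNAs and RNAs that process them were followed as a list. It held 218 genes, namely 5S, mitochondrial and other rRNA genes and the small nucleolar RNAs U3, U8, U13 and Snora73 that take part in rRNA processing. In 70 of them the totals of the 2 replicates lay within 1 stop in all 3 treatments, so their calls, like those of the entries, do not rest on a spread between separate samples. In DMS against NT 4 passed as higher and 79 as lower, where 13.8% and 12.5% of all genes did, and the median log2 fold change was -0.84. In CMCT against NT 104 passed as higher and 1 as lower, where 15.0% and 13.9% of all genes did, and the median was 0.97, beside 0.89 for the 8 entries. Among the other 148 genes of the list, 4 passed as higher and 39 as lower in DMS, and 45 as higher and 1 as lower in CMCT. The 150 genes of 5S rRNA, the other small RNA of the large subunit, made up most of both counts, with 0 higher and 62 lower in DMS and 83 higher and 0 lower in CMCT. The list's 83 calls in DMS became 54 without NT replicate 1 and 40 without NT replicate 2, and 45 of 138 genes with positions found once in mm9. Its 105 calls in CMCT became 58 without NT replicate 1, 67 without NT replicate 2 and 65 of 138 genes with positions found once in mm9.

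The 5 list members with the largest DMS change included 2 U3 genes that rose, ENSMUSG00000089295 at 4.54 and ENSMUSG00000088100 at 3.46 on the log2 scale. The other 3 were 5S rRNA genes that fell, among them n-R5s158 at -3.70. Only the 2 mitochondrial rRNA genes and 2 of 41 U3 genes passed as higher in DMS in this list. Another 11 U3 genes passed as lower, and the median log2 fold change of the 41 was -0.84. In CMCT the largest change was in the U3 gene ENSMUSG00000088309, at 4.59, followed by 4 genes of 5S rRNA between 3.20 and 3.39, n-R5s30 being the highest. Many of these copies are near-identical, so their counts may be split or shared between copies.

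Outside the entries, the genes whose log2 CPM over the 6 libraries was most like that of n-R5-8s1, among 13083 genes with at least 200 stops, were a U6 snRNA gene (Pearson's r = 0.999), the pseudogenes Gm12054 (0.998), Gm11225 (0.997) and Gm10478 (0.997), and Stx4a (0.996), which encodes a membrane fusion protein. These correlations rest on 2 DMS libraries standing apart from the other 4. For n-R5-8s1 and the U6 gene, with 138 stops in each, these 2 held equal counts. Gm12054 was close to that, with 1969 and 1968, so the 2 do not act as separate samples there. In Gm11225, Gm10478 and Stx4a they differed more. The log2 fold changes of all these genes in DMS, from 1.38 for Stx4a to 3.74 for Gm12054, lay below the 6.78 of n-R5-8s1.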

How the data were processed

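For each CIRS-seq library, the authors deposited raw counts of RT stops per transcript position, without normalization, and a table of both replicates together. The submitters' processing notes name Bowtie 1.0.0, bedtools 2.17.0 and mm9. The rule for reads with several places in the genome is not given in the sources used here. Per the labels, the RNA-seq file holds alignments to mm9 (TopHat2 2.0.6), and the score column the authors deposited with them was not used.

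Transcripts were matched to GENCODE vM1, which held 26792 of 26827. Stops were summed per gene, each genomic position once, and tested with edgeR 4.0.16 (R 4.3.3; TMM, quasi-likelihood, treatment only, 6 libraries in 1 fit), adjusted by Benjamini-Hochberg over 13216 genes. On simulated data for CMCT against NT over 13213 genes, 90% of 4-fold and 8% of 2-fold changes were recovered. Words of 25 bases were counted with Python 3.11.15 and alignments made with Biopython 1.88 and BLAST 2.17.0. Intervals are 95% and cover counting error. Named genes were all 8 entries, at most 5 of the rRNA list per contrast by size of change, and the 5 most like n-R5-8s1. The entries and lists were chosen with earlier results of these data known. Alternatives were DESeq2 1.42.0, its size factors, no filter on low counts, positions found once in mm9, a replicate block, each library left out, stops moved by 1 base, and words of 20 or 30 bases. The mature sequence of miR-2134 was not used here.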

Additional observations from a re-analysis of the deposited data

How the results depend on the processing

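The number of genes called in DMS against NT was 3485 and became 5616 with a replicate block, 5595 with DESeq2 and 1024 with positions found once in mm9, where fewer positions were tested, and it ranged from 1719 to 4619 when a library was left out. In CMCT against NT the 3827 genes became 633 with positions found once in mm9, and ranged from 1600 to 4402. Of the 8 entries, 5 were called in DMS, where 26.4% of all genes were, and 8 with the replicate block, where 5616 of 13216 genes were. The 5 were chosen on this contrast, so nothing is read from these counts. In CMCT 4 entries were called, where 29.0% of all genes were, and 0 with positions found once in mm9, where 633 of 11522 genes were. mmu-mir-2134-2 and its identical copy, which hold no such positions, carry 1 measurement between them. The calls in the list of 218 rRNA and processing genes ranged from 40 to 104 in DMS and from 58 to 155 in CMCT when a library was left out. Replicate numbers went together in DMS and NT, where the deviations of same-numbered samples correlated by 0.553. They did not for CMCT, at 0.0101 with NT and -0.107 with DMS. The main fit holds no replicate block, and the block stands here only.

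The direction of mmu-mir-2134-2 and its identical copy on chromosome 9 was not stable. In DMS against NT their log2 fold changes turned from -1.16 to 2.23 and 2.24 with the replicate block and to 5.45 and 5.47 without NT replicate 2, and the lowest was -2.63, without DMS replicate 2. In CMCT against NT they turned from 0.12 to -0.10 under DESeq2 and under its size factors, and ranged from -6.76 to 6.73 and 6.74 when a library was left out. The copy on chromosome 13 ranged from 0.55 to 4.48 in DMS against NT and from -3.57 to 0.48 in CMCT against NT when a library was left out. The first 5 entries kept a log2 fold change above 0 in both contrasts under the 11 alternatives run, but in CMCT n-R5-8s1 and mmu-mir-2134-1 passed in 2 of the 11, 5_8S_rRNA in 7, AC165092.1 and AC140318.1 in 8, and the copy on chromosome 13, as lower, in 5, with adjusted p up to 0.732. The first 5 entries were chosen on DMS against NT and have near-equal replicates, so leaving out a library is no separate check of their direction. The share of DMS stops of n-R5-8s1 on A or C moved from 71.4% to 51.3% when the stop was counted 1 base upstream. It was 72.4% when the stop was counted 1 base downstream. In each replicate alone it was 71.4%, which is no check, since both hold the same DMS counts within 1 stop at every position. With words of 20 or 30 bases, 6 and 5 entries shared words, against 5. The 49 RNA-seq alignments with a midpoint in an entry became 24 on the same strand and 105 by any overlap. The cause of these changes was not tested. Depth limits AC165092.1 and AC140318.1, whose NT libraries held 5 stops each in all.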
